A study of Rattus norvegicus with 6 samples.

Results

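The subject is a dense cluster of SYNCRIP iCLIP peaks on the plus strand of rat chromosome 20, between 42969121 and 42971680 of the rn6 build (chr20:42969121-42971680). All plus-strand peaks that lie wholly within these 2560 nt were taken from the 3 SYNCRIP peak lists. This gave 66 of the 12583 peaks in the lists, 21 in replicate 1, 25 in replicate 2 and 20 in replicate 3. The cluster was chosen from these lists for its many regions with peaks of all 3 libraries. Its peak density, scores and agreement between libraries are therefore given as descriptions, without a test.

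The libraries came from primary cortical neurons of Sprague-Dawley rats, held for 6 days in culture and irradiated with UV-C before lysis. In 3 libraries the protein was recovered with an antibody against hnRNPQ (SYNCRIP), and in 3 others a monoclonal IgG1 isotype control was used. The submitters call the 3 replicates of each group biological. Lists of the SYNCRIP libraries alone were used, and without the IgG libraries, not analysed here, no value has a background of the precipitation beside it.

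SYNCRIP, or hnRNP Q, is an RNA-binding protein with several RNA recognition motifs that is found in the nucleus and the cytoplasm, and in neurons it travels with RNA granules into dendrites and is linked to the translation and stability of its target mRNAs. In iCLIP, ultraviolet light joins protein to the RNA it touches, reverse transcription tends to stop at the joined base, and the mapped read starts therefore mark contacts at high resolution. A peak caller then keeps the bins where reads pile up beyond its own model.

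Marcks, which encodes a membrane-associated, actin-binding substrate of protein kinase C that is abundant in growing neurites, was the gene expected at this position. The data used here cannot assign it. No rn6 annotation or sequence was used, and the RefSeq table at hand is for the later build GRCr8, where Marcks is on chromosome 20 but on the minus strand, whereas these peaks are on the plus strand of rn6. Position and strand were not carried over between the builds, so the cluster is called by its position, and exons, introns and untranslated regions under the peaks are not stated.

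The cluster stood alone on its strand. The nearest other plus-strand peaks of any list were 1868 kb below and 1658 kb above it. No minus-strand peak lay within its bounds, and the nearest one was 113 kb above. Of all plus-strand peaks on chromosome 20 it held 21 of 68 in replicate 1 (30.9%), 25 of 63 in replicate 2 (39.7%) and 20 of 42 in replicate 3 (47.6%). A large part of the plus-strand peaks of this chromosome thus lay within these 2560 nt. Such isolation was not particular to this cluster. Among the nuclear clusters with at least 10 regions of all 3 libraries, those on chromosomes 1 and 9 lay further from the nearest same-strand peak, 2721 and 2162 kb. For those on chromosomes X, 2, 6 and 18 this distance was 0.22 to 0.26 kb.

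Like every other nuclear cluster with at least 10 regions of all 3 libraries, the cluster took up a larger share of the shorter lists. It made up 0.369% of the 5687 peaks of replicate 1 (95% Wilson interval 0.242 to 0.564), 0.601% of the 4163 peaks of replicate 2 (0.407 to 0.885) and 0.732% of the 2733 peaks of replicate 3 (0.474 to 1.13). The intervals cover counting error only, treat neighbouring peaks as independent, and overlap. The number of peaks itself was 22.0 ± 2.6 (SD, n = 3). Replicate 2 had more peaks here than replicate 1 although its list is shorter, which was so in 39 of the 267 nuclear clusters of at least 5 regions (14.6%). When all lists were limited to the length of the shortest, 2733 peaks by score, 14, 25 and 20 of these peaks were left in replicates 1, 2 and 3.

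**Figure D1:**
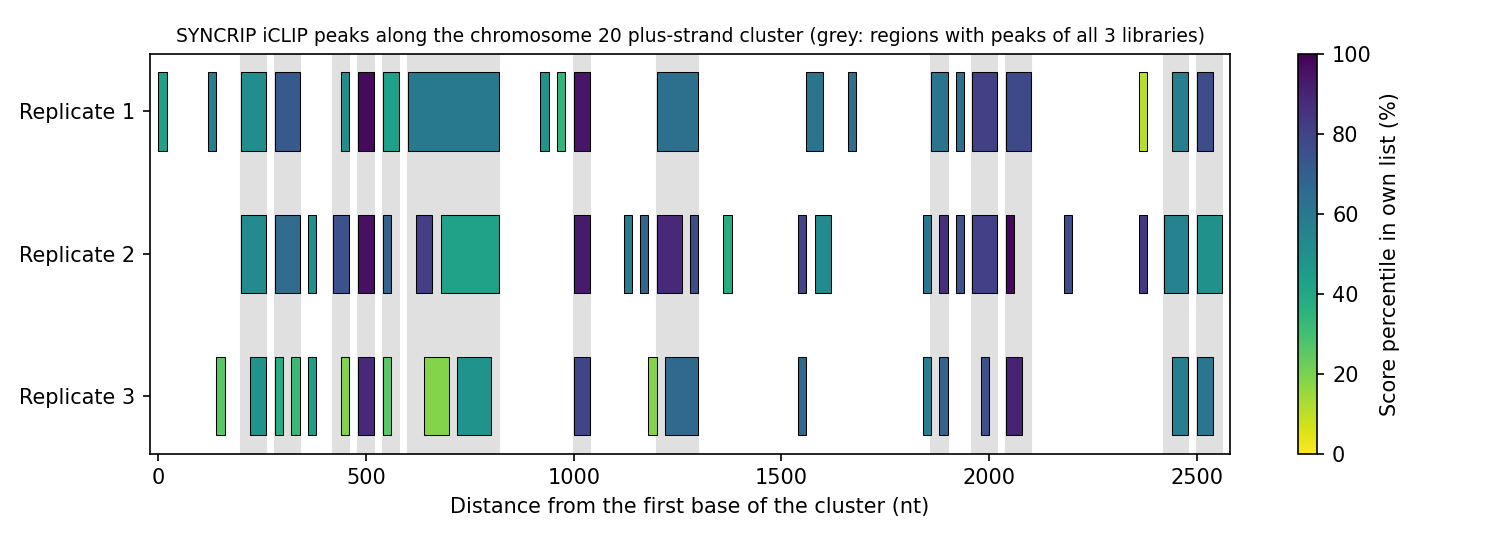
Peaks of the 3 SYNCRIP libraries (rows) against the distance from the first base of the cluster in nt, with each box drawn to the width of its peak and coloured by the percentile of its score within its own list. Grey bands mark the 13 regions with peaks of all 3 libraries, and the 3 longest stretches without a peak of any library are 160 nt each.

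Peaks covered 39.1%, 37.5% and 26.6% of the cluster in replicates 1, 2 and 3, or 34.4% ± 6.8 (SD, n = 3). At least 1 library had a peak over 63 of the 128 bins of 20 nt (49.2%). All 3 had one over 26 bins (20.3%), 2 of the 3 over 17 bins (13.3%) and a single library over 20 bins (15.6%). Of the covered bins, those of all 3 libraries were thus the most frequent kind. The remaining 65 bins (50.8%) had no peak in any list.

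The peaks were wider than is usual in the lists, which was not particular to this cluster. Among the nuclear clusters with at least 10 regions of all 3 libraries, its mean peak width was the shortest in replicates 1 and 2. A width of 1 bin was found for 38.1% of the cluster's peaks in replicate 1, 52% in replicate 2 and 55% in replicate 3, against 75.5%, 77.0% and 78.4% of all peaks in the respective lists. The widest peaks spanned 220, 140 and 80 nt. Within a library, successive peaks were separated by a median of 40, 20 and 40 nt. The shortest possible gap, a single empty bin, separated 10 of 20, 14 of 24 and 9 of 19 neighbouring pairs. The longest gaps were 260, 220 and 360 nt.

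Empty stretches divided the cluster into 4 parts. No list had a peak from position 1381 to 1540, 1681 to 1840 or 2201 to 2360, counted in nt from the first base of the cluster. These gaps of 160 nt lie under the 200 nt over which regions were chained, and with chaining over at most 100 nt the cluster fell into 4. The first part, positions 1 to 1380, held 18 of the 30 regions, and the last, positions 2361 to 2560, held 3. Coverage in replicates 1, 2 and 3 was 47.8%, 43.5% and 34.8% in the first part and 50%, 70% and 40% in the last. The part from 1841 to 2200 held 6 regions and was covered to 50%, 44.4% and 27.8%. The short part from 1541 to 1680 held 3 regions, and none of them had peaks of all 3 libraries.

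When overlapping peaks of the 3 lists were merged, 30 regions resulted. Of these, 13 (43.3%) had peaks of all 3 libraries and 19 (63.3%) of at least 2. Over all nuclear regions these shares were 24.6% and 47.9%, and over the regions of the other nuclear clusters of at least 5 regions they were 36.2% and 58.2%. The cluster was picked for this count, so nothing is read from the difference. Among nuclear clusters 7 reached 10 such regions. The 2 just inside that bound had 10, and the 2 just outside had 9. Of those 7 clusters this one had the lowest share of regions with all 3 libraries, 43.3%. The others ran from 45.2% on chromosome X to 73.2% on chromosome 1. No region of all 3 libraries was a single bin wide: they measured 40 to 220 nt with a median of 60 nt. All 11 regions of a single library and 5 of the 6 regions of 2 libraries were 1 bin wide. Merging makes regions of several libraries wider by construction.

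A region at positions 481 to 520 (chr20:42969601-42969640) combined a high score with identical edges in all 3 lists. It scored 142, 94 and 47 in replicates 1, 2 and 3, the highest score of the cluster in replicate 1 and the second in the others. These scores rank 154, 175 and 321 in the lists. The score is the authors' whole number per peak, whose scale no label names, so it is read here only within a list, through its rank or its percentile (the share of the list with a score at or below it). The percentiles were 97.3, 95.8 and 88.3.

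Only 1 other region had identical edges in all 3 lists, at positions 1001 to 1040 (chr20:42970121-42970160). It scored 108, 77 and 38, at percentiles 94.3, 93.0 and 79.7. In each library it lay just behind the region at 481 to 520 in the order of scores, and the pair lies 520 nt apart from start to start.

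The region at positions 2041 to 2100 (chr20:42971161-42971220) had a different profile. It held the cluster's highest score in replicate 2, 131 for a single bin at 2041 to 2060, which ranks 72 in that list. Replicate 3 also had its highest score there, 51 for a peak from 2041 to 2080 that ranks 263. In replicate 1 the peak ran from 2041 to 2100 and scored 63, rank 1255. All 3 peaks began at the same bin, and the widest of them had the lowest percentile, 77.9 against 98.3 and 90.4.

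Directly before it lay the region at positions 1961 to 2020, with scores of 67, 53 and 35. Its percentiles of 80.7, 80.9 and 75.0 were close together in the 3 libraries. At positions 1861 to 1900 the scores were 50, 60 and 32, and the percentiles 61.7, 86.1 and 68.8. These 3 regions share the part from 1841 to 2200, and there the highest percentile was that of replicate 2 each time.

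The broadest region, at positions 601 to 820, was split differently by the libraries. Replicate 1 had a single peak of 220 nt with a score of 49. Replicate 2 had a peak at 621 to 660 with a score of 54 and another at 681 to 820 with a score of 33. Replicate 3 had peaks at 641 to 700 and 721 to 800, with scores of 21 and 26. The libraries thus covered the same stretch with different peaks, of which those ending at 820 in replicates 1 and 2 share that edge, and all 3 libraries covered 120 nt of it. The score of 49 in replicate 1 stood at percentile 59.6 of its list. Peaks of 4 or more bins in that list had a median score of 77.

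The region at positions 1201 to 1300 was also broad. Replicate 1 scored 51 over 100 nt, replicate 2 had peaks of 64 and 49 on either side of an empty bin, and replicate 3 scored 31 over 80 nt. The percentiles of its best peaks were 63.4, 88.3 and 66.3. Replicate 2 again stood highest.

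The other regions of all 3 libraries before position 600 had scores of at most 57, 47 and 26 in replicates 1, 2 and 3. At 201 to 260 the scores were 45, 36 and 26. At 281 to 340 they were 57, 41 and 24, the last for the higher of 2 separate bins in replicate 3. Percentiles at these sites ran from 38.3 to 71.9. At 421 to 460 the scores were 45, 47 and 21, and at 541 to 580 they were 42, 43 and 22. At these last sites replicate 3 was just above the lowest score of its list, 20, with percentiles of 18.6 and 25.9, while replicate 2 reached 74.7 and 68.4.

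Toward the end of the cluster, the region at 2421 to 2480 had scores of 48, 37 and 28 in replicates 1, 2 and 3. Its percentiles were 57.7, 56.1 and 57.3, the closest together among the 13 regions. In the last region, at 2501 to 2560, the scores were 62, 35 and 29, and replicate 1 stood highest, at percentile 77.1 against 49.7 and 60.7.

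**Figure D2:**
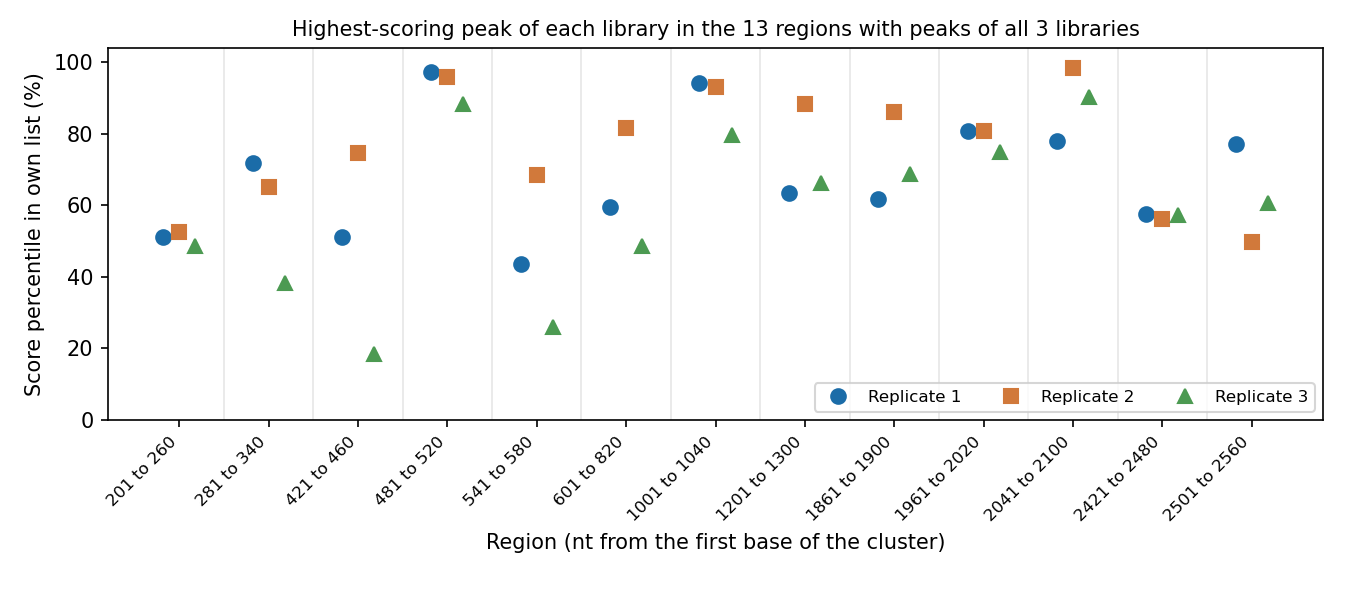
Percentile of the score within its own list, in %, for the highest-scoring peak of each library (symbols) in each of the 13 regions with peaks of all 3 libraries, in order along the cluster. The regions at 481 to 520, 1001 to 1040 and 2041 to 2100 stand highest on average, and replicate 3 falls to 18.6 at 421 to 460.

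The order of scores was shared in part. Over the 13 regions, Spearman's rho was 0.55 for replicates 1 and 2, 0.83 for 1 and 3 and 0.69 for 2 and 3. Without the 2 regions of identical edges it was 0.30, 0.76 and 0.49 over 11 regions, so the pair with high scores carried much of the agreement of replicate 2 with replicate 1. Over the other 1687 nuclear regions of all 3 libraries the values were 0.69, 0.60 and 0.61. The points come from the same 3 libraries and neighbouring sites, and the coefficients are descriptions across sites.

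Regions with peaks of 2 libraries numbered 6, of which 3 joined replicates 1 and 2 and 3 joined replicates 2 and 3. No region was shared by replicates 1 and 3 alone. At 2361 to 2380, the highest score among them came from replicate 2, with 57 (percentile 83.9), while replicate 1 scored 33 (percentile 10.8), 1 above the lowest value of its list. At 1541 to 1560 replicates 2 and 3 scored 51 and 31. Replicate 2 took part in all 6. The split over all nuclear regions is not set beside these few regions, so it is not read as particular to the cluster.

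A single library had the other 11 regions, 5 in replicate 1, 4 in replicate 2 and 2 in replicate 3. The highest scores among them were 51 in replicate 1 at 1661 to 1680, 49 in replicate 2 at 2181 to 2200 and 22 in replicate 3 at 141 to 160. Their percentiles were 63.4, 76.9 and 25.9, so a region of a single library was not always a low-scoring one. In replicate 1 the median percentile was 48.7 for the regions of 1 library, 61.7 for those of 2 and 63.4 for those of 3. In replicate 2 these medians were 62.7, 67.8 and 80.9, and in replicate 3 they were 22.3, 57.3 and 60.7. The medians for 1 and 2 libraries rest on 5 and 3 regions in replicate 1, 4 and 6 in replicate 2, and 2 and 3 in replicate 3. The highest peak of a library in a region was taken. Only regions of all 3 libraries held 2 peaks of the same library, which favours them.

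Some of these regions adjoin a region of another library. Replicate 1 had a peak at 121 to 140 and replicate 3 the next bin, 141 to 160. Joining peaks up to 20 nt apart reduced the 30 regions to 13, of which 7 had all 3 libraries and 4 a single library. The longest joined region measured 400 nt. The number of separate sites in the cluster therefore depends on the joining rule.

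Edges of overlapping peaks were compared at the resolution of the bins. Of the 53 overlapping pairs of peaks from different libraries, 29 had the same start, 33 the same end and 19 both. Both edges lay within 20 nt of each other in 37 pairs. Counted by coordinates, 2 peaks were identical in all 3 lists, 13 in 2 lists, and 34 occurred in a single list. Overlapping peaks of a single bin are identical by construction, and narrow peaks agree closely because all edges fall on the same bins. No such counts over all nuclear peaks stand beside these, so they are not read as particular to the cluster.

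On average, 74.5% of the peaks of a library had an overlapping partner in another given library (6 ordered pairs), with an SD of 7.1 over the 3 libraries. Over all nuclear peaks this share averaged 60.7%, and over the peaks of the other nuclear clusters of at least 5 regions 69.9%. Of the 20 peaks of replicate 3, 18 (90.0%, 95% Wilson interval 69.9 to 97.2) overlapped replicate 2 and 15 (75.0%, 53.1 to 88.8) overlapped replicate 1. Of the 25 peaks of replicate 2, 18 (72.0%, 52.4 to 85.7) overlapped replicate 1 and 18 overlapped replicate 3. Of the 21 peaks of replicate 1, 16 (76.2%, 54.9 to 89.4) overlapped replicate 2 and 13 (61.9%, 40.9 to 79.2) overlapped replicate 3. The corresponding shares of all nuclear peaks were 72.8% and 81.4% for replicate 3 in replicates 2 and 1, 75.7% and 45.4% for replicate 2 in replicates 1 and 3, and 52.9% and 35.8% for replicate 1 in replicates 2 and 3. The cluster was thus above all nuclear peaks in 4 ordered pairs and below them in the other 2, replicates 2 and 3 in replicate 1. In the other dense clusters these 2 shares were 84.1% and 86.9%. The intervals are wide and overlap, and no difference between the ordered pairs was tested. No partner in either other list was found for 5 of 21, 4 of 25 and 2 of 20 peaks of replicates 1, 2 and 3 (23.8%, 16% and 10%), against 41.9%, 21.7% and 13.9% of all nuclear peaks.

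The scores of the cluster were spread through the lists rather than concentrated at the top. They ran from 33 to 142 with a median of 50 in replicate 1, from 32 to 131 with a median of 47 in replicate 2 and from 21 to 51 with a median of 27 in replicate 3. In the top 10% of their list lay 2 of 21 (all peaks: 10.0%), 3 of 25 (10.4%) and 1 of 20 (10.0%). Above the median score of the list lay 14 of 21 (all peaks: 48.8%), 19 of 25 (47.4%) and 10 of 20 (46.5%). In the top 10% all 3 libraries were thus near the share of their list. Above the median, replicate 3 was near it and replicates 1 and 2 were higher. These shares are not matched for width, and wider peaks had higher median scores in each list. Among peaks of 1 bin the medians were 44.5, 47 and 24 in the cluster against 42, 34 and 25 in the lists of replicates 1, 2 and 3. For 4 or more bins they were 50, 33 and 28.5 against 77, 62 and 45. Scores under 1.5 times the lowest of the list were found for 7 of 21, 8 of 25 and 13 of 20 peaks, against 55.7%, 58.7% and 60.7% of the respective lists, and these are the peaks nearest to the threshold of the caller.

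Compared with the 6 other nuclear clusters of at least 10 regions of all 3 libraries, the chromosome 20 cluster was the least covered. Their mean coverage over the 3 libraries ran from 41.5% ± 7.1 on the minus strand of chromosome 18 to 57.3% ± 4.2 on the plus strand of chromosome 1 (SD, n = 3), against 34.4% ± 6.8. By single library, its 39.1% and 37.5% in replicates 1 and 2 were the lowest of the 7 clusters. Its 26.6% in replicate 3 was level with the 26.6% of the minus-strand cluster on chromosome 6. All 7 were chosen on their peaks, and the difference was not tested. Its share of bins covered in all 3 libraries, 20.3%, was the lowest of the 7 clusters. The others ran from 21.5% on chromosome 6 to 45.8% on chromosome 1, with 35.6% on chromosome 2. With 13 regions in 2560 nt it had 5.08 regions of all 3 libraries per kb, between the 4.63 of the chromosome X cluster and the 5.70 of the chromosome 2 cluster. Bins covered in both of a pair of libraries made up 60.7%, 52.7% and 54.7% of those covered in either, for replicates 1 and 2, 1 and 3, and 2 and 3. The corresponding values were 77.8%, 68.4% and 76.1% on chromosome 2 and 52.9%, 45.5% and 43.6% on chromosome 6. Only the chromosome 6 cluster had lower values than the chromosome 20 cluster, and it did so for each pair.

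**Figure D3:**
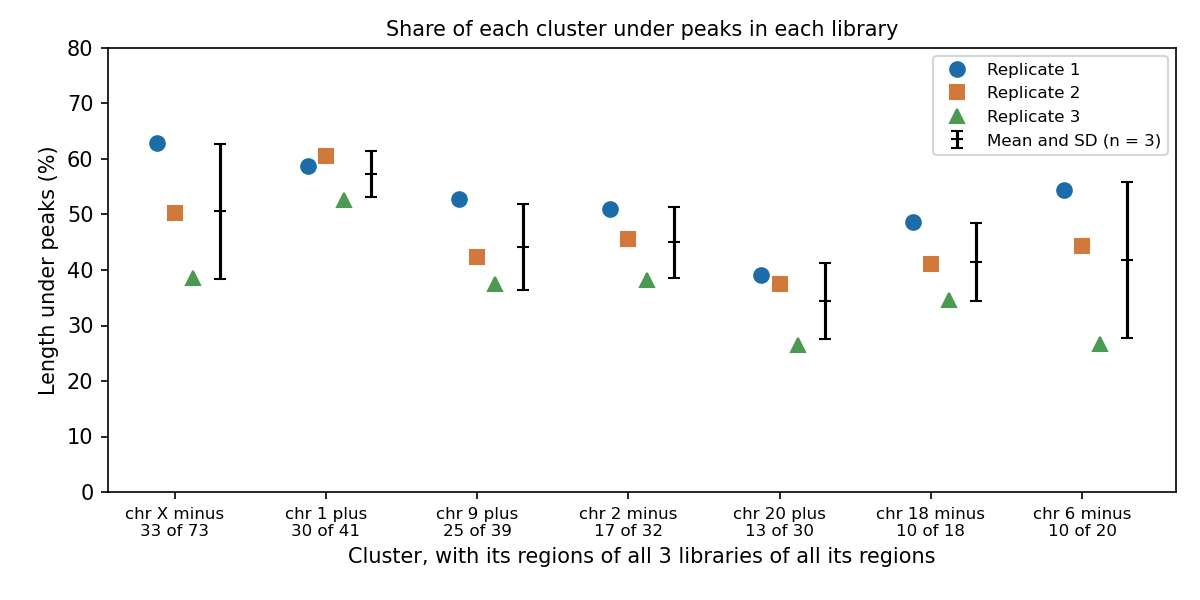
Share of each cluster's length under peaks, in %, in each SYNCRIP library (symbols) with the mean and SD over the 3 libraries (black), for the 7 nuclear clusters with at least 10 regions of all 3 libraries. The chromosome 20 cluster has the lowest mean, 34.4%, and its replicates 1 and 2 lie close together at 39.1% and 37.5%.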

How the data were processed

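The deposited data used are peak positions, scores and strands from the 3 SYNCRIP libraries. The submitters' processing notes name STAR and, as the genome build, rn6. The deposited lists are named for Piranha with bins of 20 nt, 1 list per library. The deposited score of each peak is a whole number made by the authors whose scale is not given in the sources used here, so it was read only within a list. The caller's threshold, its version and any removal of duplicate reads are likewise not given there. Sequencing depth is unknown. A single entry of replicate 1 with its end before its start was left out.

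Same-strand peaks overlapping by at least 1 bp were merged into regions, and regions were chained into clusters over gaps of at most 200 nt. Every region with peaks of all 3 libraries was named; of the others, the highest-scoring of each kind. Overlap and merging rules were tested on simulated data, with 0 differences in 8 checks. Positions are 1-based. The cluster and the comparisons were chosen with earlier results of these data known. No sequence is printed because no rn6 sequence was used. Analyses used Python 3.11.15, pandas 2.3.3 and scipy 1.17.1.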

Additional observations from a re-analysis of the deposited data

How the results depend on the processing

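The share of peaks with a partner was 74.5%, and it was 59.2% where the overlap had to reach 50% of both peaks, 88.2% where a partner could lie 20 nt away, 66.5% with scores of at least 1.5 times the lowest of the list and 28.9% with identical coordinates. A stricter overlap rule cannot raise this share, and a partner up to 20 nt away cannot lower it. Regions of all 3 libraries numbered 13. They numbered 7 when peaks up to 20 nt apart were joined and 6 under the stricter score. With an overlap of 50% of both peaks they numbered 10, and with identical coordinates 2. The joining and the stricter score leave fewer regions or peaks by construction, and the last 2 rules ask for closer agreement. Coverage was 34.4% and fell to 20.8% under the stricter score. Without 1 replicate, the share with a partner ran from 68.5% to 81.0%, the regions of all remaining libraries from 13 to 16 and the coverage from 32.0% to 38.3%. Such regions need peaks of fewer libraries than the 13 do, which favours a higher count. Lists of equal length gave 72.5%, 10 regions and 31.8%; they and identical coordinates were chosen after seeing the data. Since depth is unknown, the absence of a peak in a list does not show that the site was unbound. No paired analysis was possible because values exist here for a single group, the IgG libraries with the same numbers being not analysed here.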
